A study of Homo sapiens with 3 samples.

Results

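The 45 genes described here encode 27 histone lysine methyltransferases and 18 histone demethylases of the lysine type or their close relatives. They were taken by gene symbol from a table of 58735 genes, and all 45 were found in it. The table holds gene expression of H660 cells, an established line of neuroendocrine prostate cancer, measured by RNA sequencing as FPKM, a fragment count scaled to the length of the gene and to the mapped fragments of the library. Parental H660 cells were treated for 24 h with the vehicle DMSO, with 2.5 µM JG231 or with 5 µM JG231, an allosteric inhibitor of the HSP70 chaperones, and all 3 conditions share this line and carry no other genetic change in the labels. Each condition has 1 library, so no difference below has a replicate check, and no p-value or SD can be given.

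Histone methyltransferases move a methyl group from S-adenosylmethionine to a lysine of a histone tail, and most do so through a SET domain. Demethylases take the group off again, either by flavin-dependent amine oxidation in the LSD pair or by the iron- and 2-oxoglutarate-dependent JmjC domain in the others. The meaning of the mark depends on the residue. Methylation of H3K4 marks promoters and enhancers, H3K36 and H3K79 methylation covers transcribed genes, and methylation of H3K9, H3K27 and H4K20 is tied to silent or compacted chromatin.

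A change is given below as log2 of the ratio of FPKM values after a pseudocount of 0.1 FPKM was added to both. A gene was called higher or lower where its FPKM was over 1 in either library compared and its absolute log2 change was over 0.25, and "rose" and "fell" are used for such calls alone. The intervals beside single genes are exact 95% counting intervals on fragments estimated from the FPKM values and the canonical transcript length. They hold for the FPKM ratio without the pseudocount, so they are not centred on the printed change and lie farther from 0 for low genes. They cover counting error only and leave out differences between cultures. As a stand-in for such differences, the robust spread of the difference between both treated libraries was taken over the 500 genes nearest in level to each member. It ran from 0.25 to 1.13 over the members, with a median of 0.34 on the log2 scale, and it holds any real effect of dose. Beside a member it is said where its call ended under either of 2 other treatments of the values. Calls of single genes outside the members were not followed in this way. In the first, each library was rescaled after small RNA and mitochondrial genes were set aside ("rescaled"), and in the second the median of the 500 protein-coding genes nearest in transcript length was subtracted ("length removed").

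The libraries held about 16100000, 20400000 and 24100000 fragments for DMSO, 2.5 µM and 5 µM. KDM8 rested on the fewest fragments of any member, 19.9 at 5 µM, and every other member had at least 95.6 in each library. The label gives the cell type as prostatic adenocarcinoma. All 8 neuroendocrine markers on a list were over 1 FPKM in the DMSO library, among them CHGA, which encodes chromogranin A of secretory granules, at 45.99 FPKM. Of 6 prostate luminal markers none passed 1 FPKM in any library: KLK2 was listed at 0 throughout, and HOXB13 was highest at 0.86 FPKM. Of 4 stromal, endothelial and immune markers, PTPRC and PECAM1 were listed at 0, and COL1A1 reached 1.27 FPKM. The neuroendocrine markers shifted with treatment: 8 of 8 (100%) were lower at 5 µM, beside 45.1% of all genes. At 2.5 µM 7 (87.5%) were lower and 1 (12.5%) higher, beside 43.4% and 36.4%. CHGA was at 15.05 and 12.7 FPKM at the lower and higher dose. The part of that shift in the changes of the enzymes was not tested, and in bulk RNA fewer cells of a type and less RNA per cell cannot be told apart.

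All 45 members passed the level filter in both comparisons with DMSO. At 5 µM, 6 members were higher and 19 lower, which is 13.3% and 42.2% of them, against 36.5% higher and 45.1% lower among all 15765 genes passing the filter. At 2.5 µM, 12 were higher and 14 lower, which is 26.7% and 31.1%, against 36.4% and 43.4% of 15746 genes. On the deposited values the share of members that fell was thus near the background or below it, and the share that rose was below it at both doses. When rescaled, 34 members (75.6%) were lower at 5 µM, above the 60.1% of all genes, and 4 (8.89%) were higher, beside 23.0%. At 2.5 µM 25 (55.6%) were then lower, beside 56.2%, and 7 (15.6%) higher, beside 24.6%. With length removed, 15 members were higher and 11 lower at 5 µM. The members' median log2 change was -0.18 at 5 µM and -0.052 at 2.5 µM, and that of all genes was -0.11 and -0.079. Over protein-coding genes alone the medians were -0.014 and 0.015, below which the members lay at both doses. Of those genes 38.0% were higher and 39.6% lower at 5 µM, and 38.3% and 37.2% at 2.5 µM. At 5 µM 21 members (46.7%), and at 2.5 µM 19 members (42.2%), had changes beyond the spread taken at their level, and both shares were below the 68.0% and 64.4% of all genes that did. Calls within that spread were those of KMT2E, SETD7, KDM5A and KDM5B at 5 µM. At 2.5 µM they were those of KMT2A, SETDB2, SETD3, SETD7, KDM2B, KDM4C and KDM5A.

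Large changes were few. With an absolute log2 change over 1, 3 members were higher and 3 lower at 5 µM, where the background was 14.7% higher and 24.3% lower. At 2.5 µM 1 member was higher and 3 were lower, where it was 12.9% and 21.7%. The members past that limit at 5 µM were KMT5A, SUV39H1 and JMJD6 upward and KDM8, KMT2D and KDM1B downward. Both comparisons share the DMSO library, which by itself makes their calls alike. Of the members, 5 (11.1%) were called higher at both doses and 11 (24.4%) lower, beside 27.9% and 38.6% of the 15164 genes passing both filters. At neither dose 11 (24.4%) were called, beside 9.81% of all genes, and 1 member, SETD7 (2.2%), was called in opposite directions, beside 3.32%.

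**Figure D1:**
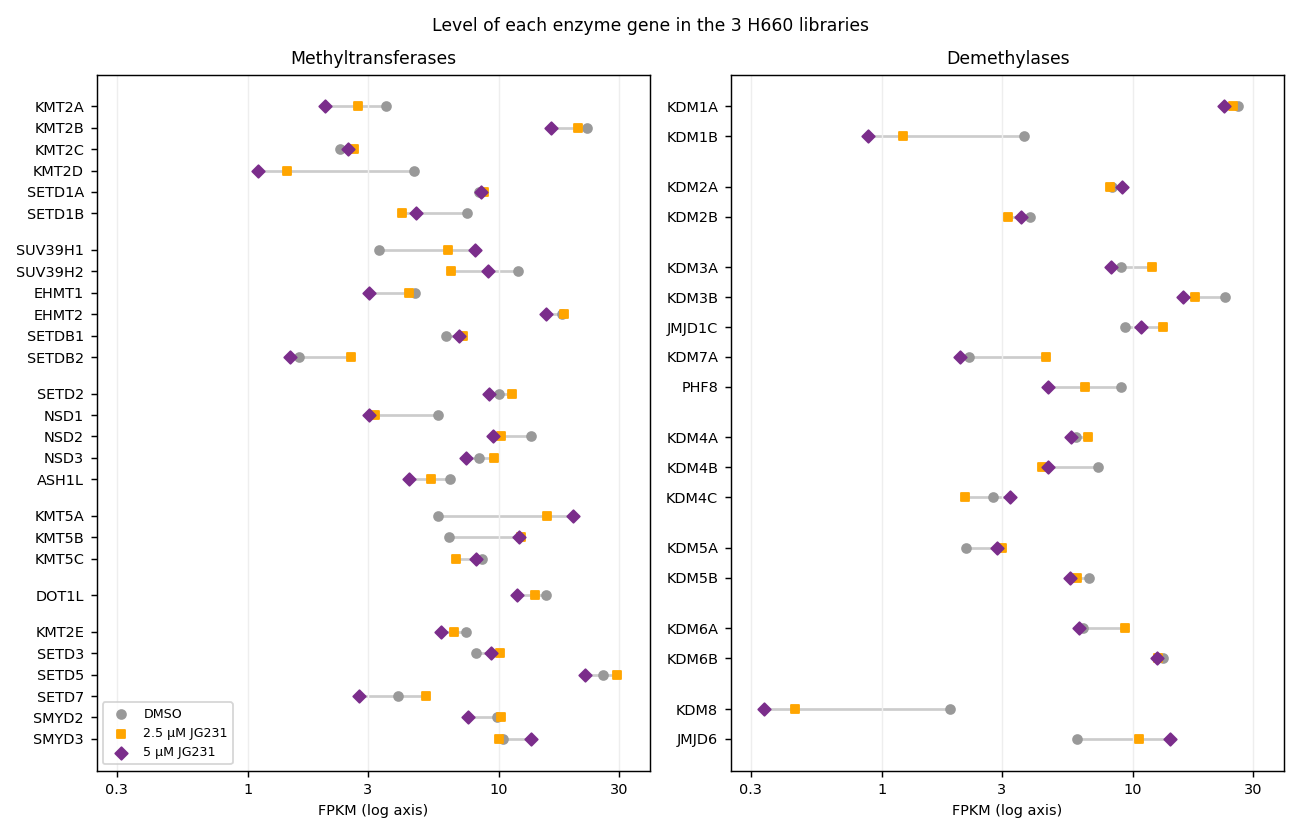
Level of each member in FPKM (horizontal log axis) in the DMSO library (grey circles), at 2.5 µM JG231 (orange squares) and at 5 µM JG231 (purple diamonds), with methyltransferases on the left, demethylases on the right and gaps between substrate groups; the grey bar joins the lowest and highest value of a gene. Most bars are short, and the longest belong to KMT5A (5.72 to 19.7 FPKM), KMT2D (4.603 to 1.09 FPKM), KDM1B (3.68 to 0.88 FPKM) and KDM8 (1.86 to 0.34 FPKM).

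The H4K20 methyltransferases included the member with the largest rise. KMT5A, which places the first methyl group on H4K20, stood at 5.72 FPKM in DMSO, 15.5 at 2.5 µM and 19.7 at 5 µM. Its libraries rank in the order of dose, and the log2 changes were 1.42 (interval 1.23 to 1.64) and 1.77 (1.59 to 1.98), beside a spread of 0.30. A processed copy of the gene, SETD8P1, was under 1 FPKM in every library, at 0.58, 0.17 and 0.74. KMT5B, which adds further methyl groups to the same residue, was at 6.33, 12.2 and 12.0 FPKM. It rose by about the same amount at both doses, with log2 changes of 0.93 (0.80 to 1.09) and 0.92 (0.79 to 1.06). Its paralog KMT5C did not share the rise, with 8.58, 6.74 and 8.13 FPKM and log2 changes of -0.34 and -0.077. The ratio of KMT5B to KMT5C was 0.74 in DMSO, 1.81 at 2.5 µM and 1.479 at 5 µM, so the more abundant of the pair, per length, was KMT5C in DMSO and KMT5B in both treated libraries. Ratios between genes here use FPKM, whose length term the files do not state, while the change of a ratio does not depend on it.

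Among the 6 H3K9 methyltransferases the SUV39H pair moved in opposite directions. SUV39H1, which trimethylates H3K9 in constitutive heterochromatin, was at 3.32, 6.24 and 7.996 FPKM in the order DMSO, 2.5 µM and 5 µM. It rose at both doses, by 0.89 (0.63 to 1.20) and 1.24 (1.0 to 1.54) on the log2 scale, beside a spread of 0.39. A long noncoding RNA gene on the opposite strand covers 21.2% of its exon bases and was listed at 0 in all 3 libraries. SUV39H2, with the same activity, was at 11.9, 6.43 and 9.01 FPKM, and its log2 changes were -0.88 (-1.07 to -0.70) and -0.40 (-0.56 to -0.24). The ratio of SUV39H1 to SUV39H2 was 0.28 in DMSO and 0.97 and 0.89 in the treated libraries. The pair that was unequal in the vehicle was therefore at nearly equal FPKM after treatment.

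The other H3K9 methyltransferases changed less. EHMT1 and EHMT2 form the GLP and G9a heterodimer, which mono- and dimethylates H3K9. EHMT1 was at 4.61, 4.37 and 3.02 FPKM, lower only at 5 µM (-0.59, interval -0.81 to -0.39), and EHMT2 at 17.7, 18.2 and 15.3 FPKM, called at neither dose. The ratio of EHMT1 to EHMT2 was 0.26, 0.24 and 0.20. SETDB1, which is brought to retroelements by TRIM28, was at 6.13, 7.18 and 6.93 FPKM, with log2 changes of 0.22 and 0.17 that did not pass the call. It shares 12.8% of its exon bases with CERS2 on the other strand, at 15.1, 20.1 and 24.4 FPKM, and whether counting kept the strands apart is not stated. Its relative SETDB2 was at 1.60, 2.57 and 1.47 FPKM, with a rise at 2.5 µM alone (0.65, interval 0.40 to 0.96) that lay within its spread of 0.72. The ratio of SETDB1 to SETDB2 was 3.83, 2.79 and 4.70.

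The H3K4 methyltransferases are the catalytic subunits of the COMPASS complexes. Of the 6, 4 (66.7%) fell at 5 µM, beside 45.1% of all genes and 66.4% of the protein-coding genes with the longest transcripts (from 7596 bases up), the set in which most of these genes lie. At 2.5 µM 3 (50%) fell, beside 43.4% of all genes, and none rose at either dose. The medians were -0.57 and -0.24. KMT2D, which with KMT2C monomethylates H3K4 at enhancers, was at 4.603, 1.43 and 1.09 FPKM. Its log2 changes were -1.62 (-1.82 to -1.55) and -1.98 (-2.22 to -1.93), both well past its spread of 0.65. KMT2C was at 2.32, 2.66 and 2.51 FPKM and was called at neither dose. The ratio of KMT2C to KMT2D was 0.50 in DMSO, 1.85 at 2.5 µM and 2.29 at 5 µM. KMT2D was thus the higher of this pair in the vehicle and the lower in both treated libraries, although both encode very long transcripts.

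The pair KMT2A and KMT2B works with menin, mainly at promoters. KMT2A fell at both doses, from 3.56 to 2.73 and 2.03 FPKM, with log2 changes of -0.37 (-0.51 to -0.25) and -0.78 (-0.95 to -0.68). KMT2B was at 22.4, 20.6 and 16.0 FPKM and was lower only at 5 µM (-0.48, interval -0.55 to -0.41). With length removed, both calls of KMT2A and that of KMT2B ended, at -0.025, -0.12 and -0.0092. The ratio of KMT2A to KMT2B was 0.16, 0.13 and 0.13, and the log2 changes of the 2 genes differed by -0.26 and -0.31. SETD1A and SETD1B carry the bulk of H3K4 trimethylation. SETD1A was at 8.31, 8.71 and 8.48 FPKM, and SETD1B fell from 7.45 to 4.13 and 4.68 FPKM, by log2 changes of -0.84 (-0.99 to -0.71) and -0.66 (-0.80 to -0.54), the latter -0.20 with length removed. The ratio of SETD1A to SETD1B was 1.11, 2.11 and 1.81. In 2 of these 3 pairs, then, 1 paralog fell while the other stayed within 0.25 of its DMSO level at both doses.

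All 5 H3K36 methyltransferases were below their DMSO level at 5 µM, as were 8530 of all 15765 genes. Of these 5 enzymes 3 (60.0%) passed the call, beside 45.1% of all genes and 66.4% of the protein-coding genes with the longest transcripts. NSD1, which dimethylates H3K36, fell most, from 5.72 FPKM in DMSO to 3.20 at 2.5 µM and 3.03 at 5 µM. Its log2 changes were -0.82 (-0.97 to -0.71) and -0.90 (-1.04 to -0.79), past its spread of 0.51. NSD2, the main H3K36 dimethylase of many cell types, was at 13.4, 10.2 and 9.50 FPKM, with log2 changes of -0.39 and -0.49, which became -0.11 and 0.023 with length removed. ASH1L, a large enzyme of the same kind, was at 6.36, 5.37 and 4.398 FPKM and was called at 5 µM alone (-0.52, or 0.11 with length removed). SETD2, which carries out H3K36 trimethylation behind RNA polymerase II, was at 10.03, 11.2 and 9.16 FPKM and was called at neither dose. NSD3 was at 8.35, 9.58 and 7.37 FPKM, also without a call. With length removed, SETD2 came to 0.33 and NSD3 to 0.42 at 5 µM. The group's median was -0.49 at 5 µM and -0.24 at 2.5 µM, and its median transcript was 10768 bases long.

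DOT1L, the only H3K79 methyltransferase, was at 15.4, 13.9 and 11.8 FPKM and fell at 5 µM (-0.38, interval -0.47 to -0.29), a direction that turned with length removed (0.12). Of the 6 remaining methyltransferase members 1 (16.7%) was higher and 3 (50%) lower at 5 µM, beside 36.5% and 45.1% of all genes. At 2.5 µM 2 (33.3%) were higher and none lower, beside 36.4% and 43.4%. SMYD3, a cytoplasmic and nuclear enzyme, rose at 5 µM only, with 10.3, 9.97 and 13.5 FPKM and a log2 change of 0.38 (0.16 to 0.60), which was 0.0001 when rescaled and 0.071 with length removed. Its relative SMYD2 fell at 5 µM only, with 9.85, 10.2 and 7.55 FPKM and a change of -0.38 (-0.62 to -0.14). The ratio of SMYD2 to SMYD3 was 0.95, 1.02 and 0.56. SETD7, which monomethylates H3K4 and many other proteins, was at 3.96, 5.13 and 2.76 FPKM, above DMSO at 2.5 µM and below it at 5 µM. Its calls ended when rescaled (0.081 at 2.5 µM) and with length removed (-0.059 at 5 µM). SETD3, in fact an actin histidine methyltransferase, was at 8.10, 10.1 and 9.29 FPKM and rose at 2.5 µM (0.31, or 0.023 when rescaled). KMT2E, whose SET domain is thought to be inactive, was at 7.37, 6.62 and 5.89 FPKM with a fall at 5 µM (-0.32, or 0.17 with length removed), and SETD5, of debated activity, was at 25.97, 29.5 and 21.9 FPKM without a call.

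Among the demethylases, the LSD pair parted in the treated libraries. KDM1A, or LSD1, the H3K4 demethylase of the CoREST complex, was the most abundant demethylase member per length, at 26.2, 24.9 and 23.1 FPKM. It was called at neither dose, with log2 changes of -0.074 and -0.18. KDM1B, or LSD2, which acts on H3K4 within transcribed genes, was at 3.68 FPKM in DMSO, 1.21 at 2.5 µM and 0.88 at 5 µM. Its libraries rank in reverse order of dose, and the log2 changes were -1.53 (-1.93 to -1.28) and -1.95 (-2.41 to -1.72), beside a spread of 0.73. The ratio of KDM1A to KDM1B was 7.12, 20.5 and 26.3.

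Of the 5 JmjC enzymes of the H3K9 group, 2 were lower at each dose (40%, beside 45.1% and 43.4% of all genes). None was higher at 5 µM and 3 were at 2.5 µM, beside 36.5% and 36.4% of all genes. PHF8, a demethylase of H3K9 and H4K20 that binds H3K4 methylation, fell at both doses, from 8.91 to 6.43 and 4.57 FPKM, by -0.46 (-0.61 to -0.33) and -0.95 (-1.11 to -0.82). Its relative KDM7A, of H3K9 and H3K27, was at 2.22, 4.51 and 2.05 FPKM, and it rose at 2.5 µM alone, by 0.99 (0.84 to 1.21). KDM3A and KDM3B both remove H3K9 mono- and dimethylation. KDM3A was at 8.93, 11.9 and 8.16 FPKM, with a rise at 2.5 µM only (0.41, or 0.12 when rescaled), and KDM3B fell from 23.2 to 17.6 and 15.8 FPKM (-0.40 and -0.55, or -0.14 and -0.12 with length removed). The ratio of KDM3A to KDM3B was 0.38, 0.68 and 0.52. JMJD1C, a further relative whose activity is disputed, was at 9.29, 13.1 and 10.8 FPKM and also rose at 2.5 µM alone (0.49, or 0.20 when rescaled).

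The KDM4 enzymes remove trimethylation from H3K9 and H3K36. KDM4B fell from 7.24 to 4.34 and 4.56 FPKM, by -0.72 (-0.91 to -0.56) and -0.65 (-0.83 to -0.50). KDM4A was at 5.91, 6.59 and 5.65 FPKM and KDM4C at 2.76, 2.13 and 3.24 FPKM, the latter lower at 2.5 µM only (-0.35), within its spread of 0.53. A protein-coding gene on the same strand covers 40.2% of the exon bases of KDM4A and was listed at 0 throughout. How shared reads were counted is not stated. Of the H3K36 demethylases, KDM2A was at 8.22, 8.06 and 9.06 FPKM without a call. KDM2B, which also recruits a Polycomb complex to CpG islands, was at 3.88, 3.17 and 3.57 FPKM, lower at 2.5 µM only (-0.28, or -0.17 with length removed). The ratio of KDM2A to KDM2B was 2.12, 2.54 and 2.54.

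The H3K4 demethylases took opposite directions at 5 µM, and the H3K27 pair had no call there. KDM5A, which removes H3K4 trimethylation, rose from 2.16 to 3.02 and 2.86 FPKM, by 0.46 and 0.39, both within its spread of 0.56 and without a call when rescaled (0.18 and 0.021). KDM5B, with the same activity, was at 6.69, 5.95 and 5.61 FPKM, and its change at 5 µM (-0.25) lay just past the call and was 0.23 with length removed. The ratio of KDM5A to KDM5B was 0.32, 0.51 and 0.51. KDM6A, or UTX, which removes H3K27 methylation, was at 6.32, 9.28 and 6.08 FPKM, higher at 2.5 µM alone (0.55, interval 0.41 to 0.70). KDM6B, or JMJD3, with the same substrate, was at 13.1, 12.6 and 12.5 FPKM without a call, and the ratio of KDM6A to KDM6B was 0.48, 0.74 and 0.49. The H3K27 methyltransferase genes are not among the 45: EZH2 was at 28.6, 35.9 and 30.7 FPKM and EZH1 at 4.87, 5.40 and 3.33 FPKM.

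The last demethylase members, KDM8 and JMJD6, are JmjC proteins whose histone activity is disputed. KDM8, or JMJD5, a JmjC protein with arginine hydroxylase activity, was at 1.86, 0.45 and 0.34 FPKM. Its log2 changes were -1.84 (-2.83 to -1.37) and -2.16 (-3.24 to -1.72), with the widest intervals and the widest spread (1.13) of all members. It passed the level filter through the DMSO library alone. With a pseudocount of 1 its changes were -0.98 and -1.10, smaller than those of KMT2D (-1.20 and -1.42) and KDM1B (-1.08 and -1.32), so its place as the largest fall rests on the small pseudocount. JMJD6, a lysyl hydroxylase that modifies splicing factors, was at 5.96, 10.5 and 13.99 FPKM. It rose in the order of dose, by 0.81 (0.54 to 1.10) and 1.22 (0.97 to 1.5), beside a spread of 0.32. A small RNA gene annotated within its exons, on the same strand and over 2.01% of their bases, was listed at 0, 1.36 and 11.3 FPKM, which is about 0, 5 and 49 fragments.

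**Figure D2:**
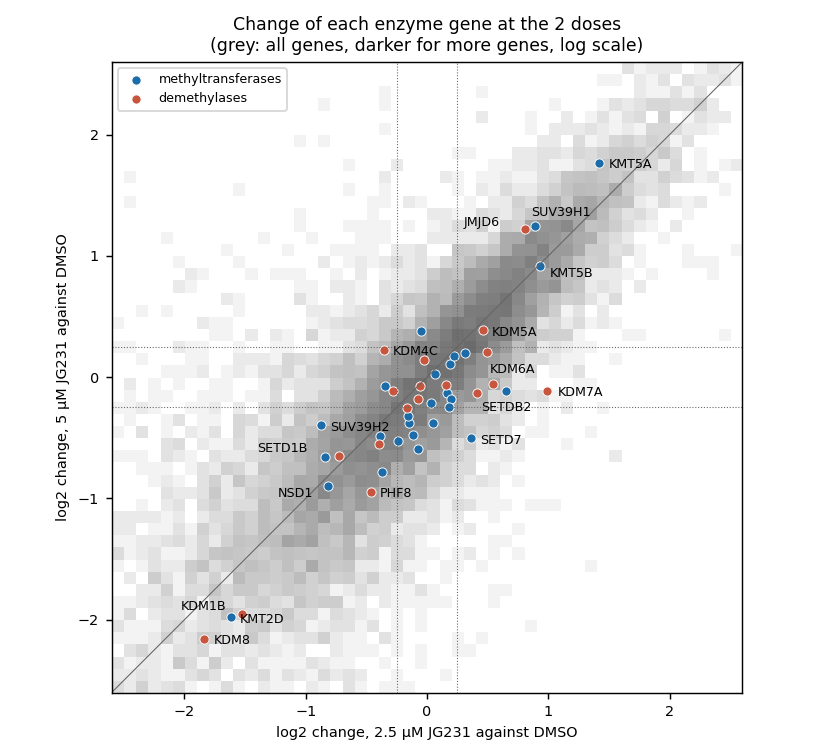
log2 change against DMSO of each member at 2.5 µM JG231 (horizontal) and 5 µM JG231 (vertical), methyltransferases in blue and demethylases in red, over the density of all genes in grey; dotted lines mark a change of 0.25 and the solid line equal changes. KMT5A (1.42, 1.77) and KDM8 (-1.84, -2.16) lie at the ends, and SETD7 (0.37, -0.50) lies in the quadrant of opposite calls; both axes share the DMSO library.

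The order of the libraries was also read directly. From DMSO through 2.5 µM to 5 µM, 16 members (35.6%) stepped down each time, 9 of them methyltransferases and 7 demethylases, beside 24.3% of all 16347 genes over 1 FPKM in any library. KMT5A, SUV39H1 and JMJD6 (6.7%) stepped up each time, beside 20.5%. In 18 members (40%) the highest library was 2.5 µM, beside 25.5%, and in 8 (17.8%) the lowest was, beside 23.0%. With a margin of 0.25 against both other libraries, 6 members (13.3%) peaked at 2.5 µM, near the 11.7% of all genes that did so: SETDB2, SETD7, KDM3A, JMJD1C, KDM7A and KDM6A. A trough of the same depth was seen for SUV39H2, KMT5C and KDM4C, 3 members (6.7%), beside 12.8% of all genes. Between both treated libraries directly, 7 of the 44 members passing the filter were higher at 5 µM and 17 lower, or 15.9% and 38.6%, beside 26.8% and 30.1% of 14197 genes. The steepest of these steps was that of KDM7A (-1.10, interval -1.31 to -0.97), and the steepest upward one that of KDM4C (0.58, interval 0.34 to 0.86).

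The classes were then set against each other. In DMSO the median level was 7.45 FPKM over methyltransferases and 6.50 over demethylases. At 5 µM 4 methyltransferases (14.8%) were higher and 13 (48.1%) lower, beside 36.5% and 45.1% of all genes, with a median log2 change of -0.24 and a middle range of -0.50 to 0.069 (first to last quartile). Of the demethylases, 2 (11.1%) were higher and 6 (33.3%) lower, with a median of -0.11 and quartiles of -0.47 and 0.090. The medians differed by -0.13. At 2.5 µM 6 methyltransferases (22.2%) were higher and 7 (25.9%) lower, with a median of 0.036, beside 36.4% and 43.4% of all genes. Of the demethylases, 6 (33.3%) were higher and 7 (38.9%) lower, with a median of -0.068. The medians differed by 0.10 there, and this sign was lost with length removed (-0.031) and without the members of no single residue (-0.0055). The FPKM summed over the class was 239, 245 and 225 for methyltransferases and 147, 146 and 133 for demethylases. With 1 library per condition the difference between the classes could not be tested.

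The members were then described with transcript length in view. Canonical transcripts had a median of 6808 bases in methyltransferases and 5849 in demethylases, beside 3276.5 in all protein-coding genes passing the filter. Over the 27 methyltransferases, longer transcripts went with lower values at 5 µM (Spearman's rho of -0.59), as over all 11836 protein-coding genes (-0.35). Over the 18 demethylases the coefficient was 0.15. At 2.5 µM the values were -0.38, 0.29 and, over 11809 protein-coding genes, -0.24. These coefficients describe genes of the same libraries, which are not independent of each other.

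The members were also split into 3 equal sets by length. In the longest set of members, from 7652 bases up, 8 of 11 methyltransferases fell at 5 µM and none rose. Of the 1126 protein-coding genes past the same cut, from 7596 bases up, 66.4% fell and 13.1% rose. The median of these methyltransferases was -0.48, beside -0.58 for those genes. The 4 long demethylases, KDM5A, KDM5B, KDM7A and JMJD1C, had a median of 0.050 at 5 µM, with 1 higher and 1 lower, beside the same 13.1% and 66.4%. At 2.5 µM these 4 genes had a median of 0.48, beside -0.29 for the 1141 protein-coding genes of that set. Of the 4 genes, 3 were higher and none lower, beside 228 and 594 of those 1141. When rescaled, the rises of KDM5A (0.18) and JMJD1C (0.20) were no longer called. In the shortest set at 5 µM, the 9 methyltransferases had a median of 0.17 and the 6 demethylases of -0.12, beside 0.17 for all protein-coding genes of that range. When the median of the 500 protein-coding genes nearest in length was subtracted, the class medians at 5 µM became 0.11 for methyltransferases and 0.18 for demethylases. Counts at 5 µM then became 15 higher and 11 lower, or 33.3% and 24.4% of the members, beside 37.3% and 37.7% of protein-coding genes treated in the same way. KMT2D stayed far below its length neighbours, at -1.31 at 5 µM, and KDM1B at -1.76 and KDM8 at -2.37, whereas NSD1 came to -0.25 and KMT2A to -0.12. KMT2C came to 0.78 and KDM5A to 0.98, far above the median of the 500 genes taken for each. For KMT2A, KMT2C and KMT2D these were nearly the same set of longest transcripts, with a median of -0.67 each. That set is not centred on the length of these 3 members, so their values with length removed are less exact. Of the 7 falls among H3K4 and H3K36 methyltransferases at 5 µM, 5 thus lay within 0.25 of the transcripts nearest in length, and those of NSD1 and KMT2D did not. At 2.5 µM SETD1B, at -0.61, and NSD1, at -0.49, also lay below their length neighbours.

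**Figure D3:**
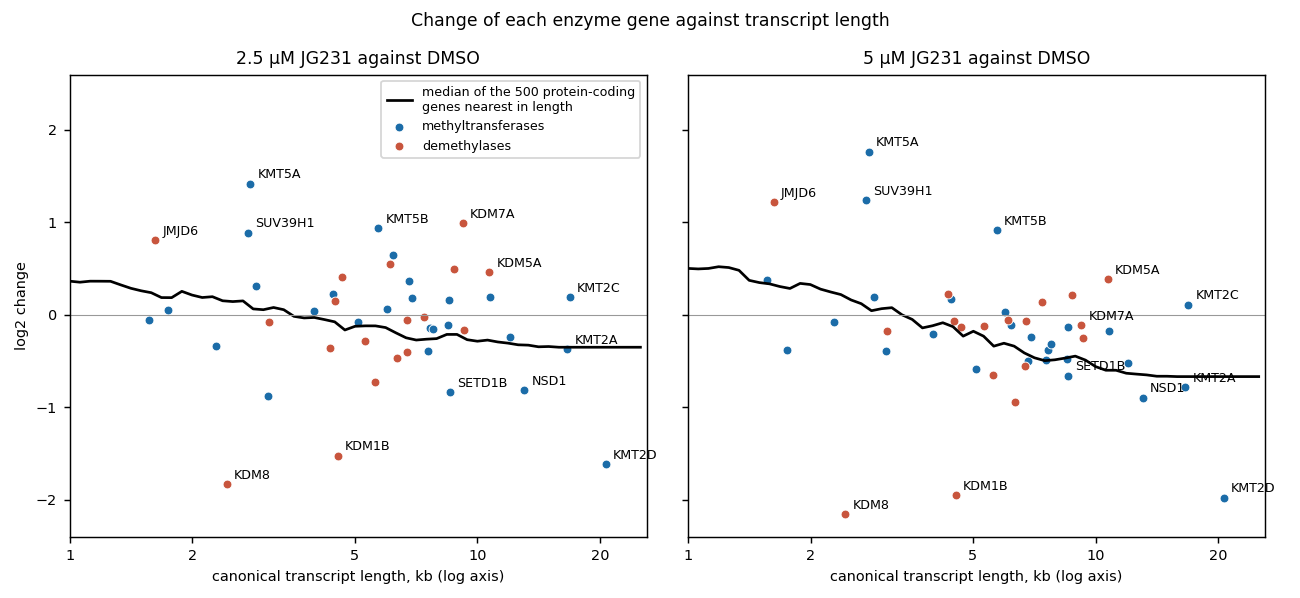
log2 change against DMSO (vertical) at 2.5 µM (left) and 5 µM JG231 (right) of each member against the length of its canonical transcript in kilobases (log axis), methyltransferases in blue and demethylases in red; the black line is the median of the 500 protein-coding genes nearest in length. At 5 µM the line falls with length, many long methyltransferases lie near it, and KMT2D, KDM1B and KDM8 lie far below it while KMT5A, SUV39H1, KMT5B and KDM5A lie above.

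The promoters of the 3 methyltransferases with the largest rises and of the 3 members with the largest falls are shown, ranked by the smaller of the changes at both doses. Each run is the 250 bases before the gene start that RefSeq gives, 5′ to 3′ on the gene's strand, taken from RefSeq on GRCh38.p14. An entry was found for 41 of the 45 members, and none for DOT1L, JMJD6, NSD3 and SETD1B. Capitals mark the only match in these runs to a searched motif, the E-box CACGTG in KMT2D, 121 bases before the start. KMT5A lies at chr12:123384132-123409353 on the plus strand, and its run at chr12:123383882-123384131. The run of SUV39H1 lies at chrX:48696484-48696733, plus strand, and that of KMT5B at chr11:68213297-68213546, minus strand. The run of KDM8 lies at chr16:27203276-27203525, plus strand, that of KMT2D at chr12:49060795-49061044, minus strand, and that of KDM1B at chr6:18155172-18155421, plus strand.
KMT5A: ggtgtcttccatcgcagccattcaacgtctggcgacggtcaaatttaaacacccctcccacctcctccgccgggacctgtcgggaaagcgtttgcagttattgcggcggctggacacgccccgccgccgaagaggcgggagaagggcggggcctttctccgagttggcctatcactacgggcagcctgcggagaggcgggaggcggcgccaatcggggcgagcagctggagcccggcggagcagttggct
SUV39H1: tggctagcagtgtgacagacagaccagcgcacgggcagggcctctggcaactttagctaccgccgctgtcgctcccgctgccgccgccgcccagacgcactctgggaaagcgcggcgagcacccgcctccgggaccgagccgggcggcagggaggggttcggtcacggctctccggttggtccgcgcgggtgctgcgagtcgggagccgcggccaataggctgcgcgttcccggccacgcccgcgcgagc
KMT5B: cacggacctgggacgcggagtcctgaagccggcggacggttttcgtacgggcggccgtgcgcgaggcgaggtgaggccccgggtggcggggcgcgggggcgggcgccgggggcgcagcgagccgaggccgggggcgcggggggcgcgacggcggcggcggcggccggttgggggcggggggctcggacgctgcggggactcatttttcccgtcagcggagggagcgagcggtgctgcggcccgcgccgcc
KDM8: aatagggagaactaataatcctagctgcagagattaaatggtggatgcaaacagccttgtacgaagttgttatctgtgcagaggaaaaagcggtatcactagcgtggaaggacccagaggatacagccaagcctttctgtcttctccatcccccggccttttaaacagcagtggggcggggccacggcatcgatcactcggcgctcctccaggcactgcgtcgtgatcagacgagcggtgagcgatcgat
KMT2D: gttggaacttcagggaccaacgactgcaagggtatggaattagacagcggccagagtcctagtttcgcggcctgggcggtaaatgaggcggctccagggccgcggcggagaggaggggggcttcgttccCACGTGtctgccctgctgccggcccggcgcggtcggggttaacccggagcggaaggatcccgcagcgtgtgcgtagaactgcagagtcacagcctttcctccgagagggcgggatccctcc
KDM1B: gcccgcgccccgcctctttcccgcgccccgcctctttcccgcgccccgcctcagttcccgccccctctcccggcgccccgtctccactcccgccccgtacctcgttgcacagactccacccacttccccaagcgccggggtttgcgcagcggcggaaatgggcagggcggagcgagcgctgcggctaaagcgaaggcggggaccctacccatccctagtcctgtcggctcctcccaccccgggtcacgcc

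The composition of these runs differed more than their motif content. GC content was 66.4% in KMT5A, 73.6% in SUV39H1, 81.6% in KMT5B, 65.6% in KMT2D, 73.6% in KDM1B and 53.2% in KDM8. The last lies below the median of 58.0% over all 35116 promoters and far below the members' median of 69.6%. Member promoters held a median of 26 CpG dinucleotides, beside 11 over all promoters. The E-box CACGTG, bound by MYC and MAX, was present on either strand in 6 of 41 member promoters (14.6%), those of KMT2D, EHMT2, KDM4B, KDM4C, KDM6A and SETDB1, beside 6.35% of all. The ATF4 and CEBP composite TGATGCAA was in none of the 41, beside 0.77% of all. The heat shock element core GAANNTTC was in 2, those of PHF8 and SETD1A (4.88%), beside 5.78% of all. No member promoter held more than 1 of the 3 motifs, so no matches of different motifs overlapped, and a match describes sequence only.

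The complexes around these enzymes were described from lists of their partners. Of 14 COMPASS subunits, 8 (57.1%) were higher and 3 (21.4%) lower at 5 µM, beside 36.5% and 45.1% of all genes. Their median was 0.27, opposite in sign to the -0.57 of the catalytic subunits. At 2.5 µM 6 (42.9%) were higher and 2 (14.3%) lower, beside 36.4% and 43.4%, with a median of 0.21. HCFC2, a relative of the adaptor HCFC1, was at 1.40, 4.46 and 5.10 FPKM, and BOD1 at 22.98, 59.2 and 59.3 FPKM. HCFC1 itself, with a transcript of 8876 bases, was at 21.3, 14.9 and 14.6 FPKM. The median canonical transcript was 3603 bases in the subunits and 12578.5 in the 6 catalytic genes, so length and role cannot be told apart in this contrast.

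Of 11 CoREST subunits, the partners of KDM1A, 1 (9.1%) was higher and 5 (45.5%) lower at 5 µM, beside 36.5% and 45.1% of all genes. Their median was -0.24, and the share that fell was near that of all genes. HDAC1, the deacetylase of the complex, fell from 76.4 to 43.1 and 38.9 FPKM. RCOR2, a CoREST scaffold of neural and stem cells, fell from 3.47 to 1.67 and 1.35 FPKM, and RCOR3, another scaffold, rose from 8.97 to 18.1 and 16.5 FPKM. GSE1 was at 17.2, 9.04 and 8.15 FPKM. HDAC2 was at 30.5, 28.6 and 28.8 FPKM without a call, so of this pair of deacetylases HDAC1 alone passed it.

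Of 10 readers and partners of H3K9 methylation, 9 passed the filter, and at each dose 3 (33.3%) were higher and 5 (55.6%) lower. Among all genes 36.5% were higher and 45.1% lower at 5 µM, and 36.4% and 43.4% at 2.5 µM. The genes called higher were not the same: CDYL and TRIM28 at both doses, CBX1 at 5 µM and ATRX at 2.5 µM. CBX1 had log2 changes of 0.18 at 2.5 µM and 0.34 at 5 µM, and ATRX of 0.37 and -0.068. Rescaling took the median of all genes from -0.11 to -0.53 at 5 µM and from -0.079 to -0.40 at 2.5 µM. Whether the calls of CBX1 and ATRX outlast it was not tested. CBX5, or HP1 alpha, which binds methylated H3K9, fell from 45.8 to 14.3 and 11.7 FPKM, with log2 changes of -1.67 and -1.95. TRIM28, the corepressor that brings SETDB1 to DNA, rose from 208 to 340 and 395 FPKM (0.71 and 0.92). CBX1, another HP1 protein, was at 42.1, 47.8 and 53.2 FPKM, and CBX3 at 56.8, 45.9 and 45.6 FPKM. Of the 3 HP1 genes CBX5 thus had the largest change, and it also has the longest transcript, 11546 bases.

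Genes that supply or remove the cofactors were mixed, with 2 of 11 (18.2%) higher and 5 (45.5%) lower at 5 µM, beside 36.5% and 45.1% of all genes. At 2.5 µM 3 (27.3%) were higher and 6 (54.5%) lower, beside 36.4% and 43.4%. MAT2A, which makes S-adenosylmethionine, fell from 51.7 to 24.6 and 24.1 FPKM. MTR, or methionine synthase, fell from 4.52 to 1.42 and 1.79 FPKM. AHCY, which clears the product of methylation, was at 55.8, 45.6 and 54.4 FPKM, lower at 2.5 µM only (-0.29). Of further methyltransferases and demethylases outside the 45, 14 passed the filter at 5 µM. Of these, 5 were higher and 5 lower (35.7% each), beside 36.5% and 45.1% of all genes. MECOM fell from 4.12 to 1.52 and 0.66 FPKM, and RIOX2, a JmjC protein of ribosome assembly, rose from 2.51 to 5.89 and 6.20 FPKM.

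**Figure D4:**
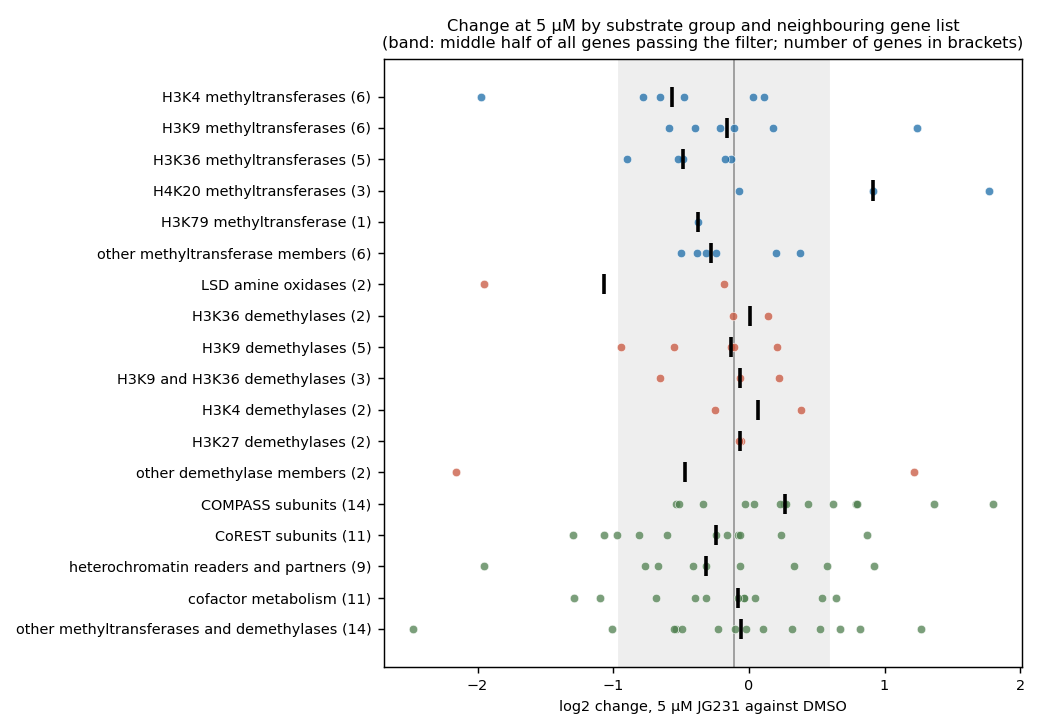
log2 change at 5 µM JG231 against DMSO of each gene (points) by substrate group, methyltransferases in blue, demethylases in red and neighbouring lists in green, with the number of genes in brackets and black ticks at the median; the grey line and band are the median (-0.11) and quartiles (-0.96 and 0.59) of all genes passing the filter. The H4K20 methyltransferases have the highest median (0.92) and the LSD pair the lowest (-1.07), each over 3 genes or fewer.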

How the data were processed

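Total RNA of DMSO- or JG231-treated H660 cells was sequenced as mRNA libraries, 1 per condition. The authors deposited FPKM values in 1 table of 58735 genes. Their methods name HISAT and StringTie, the submitters' processing notes name HISAT2, featureCounts and GRCh38 (hg38), and versions and the annotation release are not given in the sources used here. Strand-specific libraries are described, but whether counting used strand is not stated, so overlapping and antisense genes are uncertain. FPKM values are shares of a library, so a change of a few abundant genes shifts all others.

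Genes were matched by identifier to GENCODE 44, which succeeded for 58207. One fragment was worth 62.2, 49.1 and 41.58 FPKM bp in the DMSO, 2.5 µM and 5 µM libraries, read from genes with a single transcript under 50 fragments. Of these, 88.7%, 86.1% and 84.6% came out whole within 0.05, but 47.9%, 49.0% and 46.9% of genes with several transcripts did, so fragment numbers of members are estimates and no count model was run.

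log2 changes used a pseudocount of 0.1 FPKM, with calls at FPKM over 1 in either library and a change over 0.25, after the study's methods. Spread is 1.4826 times the median absolute deviation. Genes given in depth were, per class, up to 4 rises and 4 falls, ordered by whichever dose gave the smaller change, members called in opposite directions, all with a mean FPKM of at least 1, 13 paralog pairs and up to 2 genes per neighbouring list. KDM8, with a lower mean, and the other genes named in these lists were chosen after their values were seen. The members and lists were chosen with earlier results of these data known. Scripts in Python 3.11.15 used pandas 2.3.3, numpy 2.4.6, matplotlib 3.10.9 and scipy 1.17.1, and were tested on simulated data. Alternatives were pseudocounts of 1 and 0.01, other filters, 3 scalings, a removed length trend, a threshold of 1 and smaller classes. The values of some marker genes are not reported here.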

Additional observations from a re-analysis of the deposited data

Results flagged for a closer look

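SETD7 was the single member whose change had opposite signs past 0.25 at the 2 doses. Its level was 3.96 FPKM in DMSO, 5.13 at 2.5 µM and 2.76 at 5 µM, with log2 changes of 0.37 (interval 0.20 to 0.55) at 2.5 µM and -0.50 (-0.71 to -0.33) at 5 µM, beside a spread of 0.50. Each dose has 1 library, and the difference between the doses was not tested. With the length trend removed the changes were 0.63 and -0.059.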

How the results depend on the processing

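No paired analysis was possible because each condition has 1 library, and the replicate number 1 was given to each only as a name. No replicate could be left out for the same reason. A mean FPKM of at least 5 left 32 of the 45 members, of which 12 (37.5%) were lower at 5 µM and 7 (21.9%) at 2.5 µM. Of the same 32 members, 5 were higher at 5 µM and 8 at 2.5 µM. The shares of all genes under this filter were not taken. Rescaling each library after small RNA and mitochondrial genes were set aside shifted the all-gene median from -0.11 to -0.53 at 5 µM and from -0.079 to -0.40 at 2.5 µM. Under it the methyltransferase median was -0.62 and -0.25, the demethylase median -0.48 and -0.36, 34 members were lower at 5 µM, and 7 were higher and 25 lower at 2.5 µM. A common sum over all genes brought that median to -0.25 and -0.030. Centring on the median gene gave 10 members higher at 5 µM and a demethylase median of 0.011 at 2.5 µM. Removing the length trend gave methyltransferase and demethylase medians of 0.11 and 0.18 at 5 µM, with 15 members higher and 11 lower, and at 2.5 µM a demethylase median of 0.14 and a class difference of -0.031. It also turned 5 called changes at 5 µM upward: NSD2 to 0.023, ASH1L to 0.11, DOT1L to 0.12, KMT2E to 0.17 and KDM5B to 0.23. A threshold of 1 left 3 members higher and 3 lower at 5 µM and 1 and 3 at 2.5 µM. Without the enzymes of no single residue, the methyltransferase median at 2.5 µM was -0.073 and the class difference -0.0055. The cause of these shifts was not tested. Of the 51 called changes of single members, 21 ended under at least 1 alternative other than a higher threshold or level filter. Removing the length trend ended 11 at 5 µM and 4 at 2.5 µM, rescaling without the set-aside genes 2 and 5, centring 2 and 1, and a pseudocount of 1 or a common sum 1 at each dose. Apart from the 5 that turned, none of the 51 changed sign. Over all alternatives, KMT5A at 5 µM ran from 1.39 to 1.88, KMT2D from -2.34 to -1.31, KDM1B from -2.31 to -1.32 and KDM8 from -2.49 to -1.10. Depth limits KDM8 most, with 19.9 fragments at 5 µM.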

Other observations

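Of the long noncoding RNA genes named as antisense or divergent transcripts of members, 4 of the 5 over 1 FPKM in any library were lower at both doses. EHMT2-AS1 stayed under that level, at 0.024, 0.25 and 0.15 FPKM. KDM7A-DT, a divergent transcript at the KDM7A promoter, was at 6.60, 1.44 and 1.08 FPKM in DMSO, 2.5 µM and 5 µM, about 260.8, 72.0 and 64.0 fragments, while KDM7A peaked at 2.5 µM. JMJD1C-AS1 was at 5.40, 2.39 and 1.37 FPKM, and JMJD1C peaked at 2.5 µM. KDM4A-AS1 was at 2.93 and 0.36 FPKM and listed at 0 at 5 µM, while KDM4A was called at neither dose. ASH1L-AS1 was at 3.08, 0.41 and 1.62 FPKM. KMT2E-AS1 went the other way, with 4.14, 10.3 and 7.12 FPKM, or about 66.8, 210.0 and 171.8 fragments, beside a fall of KMT2E at 5 µM.

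Among all 2056 long noncoding RNA genes passing the filter at 5 µM, 63.0% were lower, and 65.2% of 2023 were lower at 2.5 µM, so the falls of the 4 antisense and divergent transcripts follow the direction most common in their class. Whether reads of these genes were kept apart from those of their partners by strand is not stated.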
